A study of Mus musculus with 7 samples.

Results

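The 83 cytosolic ribosomal protein genes of the mouse were followed across single bone marrow cells of the LSK gate, that is, cells without lineage markers that carry Sca-1 and Kit. They were chosen by name, as every symbol formed of Rpl or Rps and a number with at most a short suffix, plus Rplp0, Rplp1, Rplp2 and Rpsa. This took 83 of the 32285 genes in the files, 51 of the large and 32 of the small subunit. Of these, 81 had at least 1 UMI (a counted molecule) in every library; Rpl10l and Rpl39l did not. The study measured 3 libraries labelled B4galt1 knockout (129S1/C57Bl/6, B4-/-; here KO1 to KO3) and 4 labelled wild type (129S1/C57Bl/6; WT1 to WT4). B4galt1 encodes a galactosyltransferase of N-glycan synthesis, and all mice share the mixed 129S1/C57Bl/6 background. The labels give no age, no deleted exon and no statement that libraries come from separate animals. The p-values below therefore measure no more than the spread within and between these libraries.

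Ribosomal proteins are the structural part of the cytosolic ribosome, and their messages are among the most abundant in any dividing cell. In mammals most of these messages begin with a C at the cap followed by an unbroken run of C and T (the TOP motif), which lets mTOR signalling switch their translation on and off together. Blood stem cells are known for a low rate of protein synthesis relative to their progeny, and loss of 1 copy of genes such as Rps19 causes Diamond-Blackfan anaemia, a failure of red cell production.

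Sequence around the annotated start is shown for 6 members on which the results turn: Rps27 and Rpl35, the members that differed most between groups of libraries, Rpl5 and Rps12 at the other end of that order, and Rps27l and Rps2, which rose in every lineage gate tested. Each window runs from 10 bases before to 20 bases from the start on, 5′ to 3′ on the strand of the gene (RefSeq, GRCm38.p6). Capitals mark the longest run of C and T.
Rps27, chr3:90213629-90213658, minus strand: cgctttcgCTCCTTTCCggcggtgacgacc
Rpl35, chr2:39005112-39005141, minus strand: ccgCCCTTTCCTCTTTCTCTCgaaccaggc
Rpl5, chr5:107900518-107900547, plus strand: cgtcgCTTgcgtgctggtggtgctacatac
Rps12, chr10:23787190-23787219, minus strand: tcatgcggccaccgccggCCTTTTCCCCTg
Rps27l, chr9:66946076-66946105, plus strand: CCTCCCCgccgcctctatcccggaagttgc
Rps2, chr17:24720053-24720082, plus strand: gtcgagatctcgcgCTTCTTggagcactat
A run of at least 7 bases, each C or T, lay in 34 of 75 such windows of the 63 members with an entry (45.3%), against 17.9% of 32851 windows of all genes. On the opposite strand the shares were 5.33% and 20.6%. A match describes the letters only. The sequence of Rps27 holds 9 such bases in a row and that of Rpl35 holds 18. At the other end of the order, Rps12 holds 11 and Rpl5 only 3.

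The libraries held 14970791 to 89747946 UMIs, and 24430 cells passed the filter of at least 1000 UMIs, 500 genes and at most 10% mitochondrial UMIs. Their barcodes came from 2 lists of opening sequences, although the labels name 1 kit (Single Cell 3′ v2): list A holds KO1, KO2, WT1, WT2 and WT3, and list B holds KO3 and WT4. KO3 and WT4 shared 88 barcodes, against at most 7 between any pair within list A. The filter kept 32.4% to 49.9% of barcodes in list A and over 96% in list B (98.3% and 96.2%). Median depth per kept cell was 8046 to 11083.5 UMIs. The LSK markers Kit and Ly6a (Sca-1), and also Cd34, were detected in every library. Kit had 137 to 311 CPM (the UMIs of a gene scaled to a common library total) and Ly6a 16.6 to 48.2 CPM. In KO3 and WT4 of list B, Kit was lowest (137 and 141 CPM) and Ly6a highest (48.2 and 44.6 CPM). The 3 neutrophil markers S100a8, S100a9 and Retnlg summed to 548 to 3507 CPM in list A and to 9.73 and 82.7 CPM in list B, and no marker list for another cell type was at 0. B4galt1 itself was counted at 51.2, 55.6 and 27.4 CPM in the libraries labelled knockout and at 56.4, 69.2, 56.7 and 34.8 CPM in those labelled wild type; a 3′ count outside the deleted part checks nothing, and the deleted part is not given.

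Ribosomal protein genes took 22.1% and 16.9% of the UMIs of kept cells in KO1 and KO2, and 17.7%, 14.6% and 18.5% in WT1, WT2 and WT3. In list B they took 31.5% in KO3 and 31.7% in WT4. The mean was 17.98% ± 2.75 (SD, n = 5) in list A and 31.6% ± 0.125 (SD, n = 2) in list B, with no overlap. The share sums the members and is given as a description, with no test. Counting error is small beside this spread: the 95% Wilson interval of the share in WT2 ran from 14.59% to 14.63%, and such intervals cover counting error only. The large subunit took 7.82% to 11.96% of UMIs in list A and 17.7% to 17.8% in list B, the small subunit 6.79% to 10.2% and 13.8% to 13.9%. The ratio of large to small subunit UMIs was 1.15 to 1.18 in list A and 1.28 in both libraries of list B. A typical cell (the median) had UMIs of 79 or 80 of the 83 members in every library.

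Within a library, the share varied less from cell to cell in list B. In KO1 of list A its 10th and 90th percentiles over cells were 14.4% and 26.2%, and in KO3 of list B 27.7% and 36.5%. Over the libraries of list B the 10th and the 90th percentile were 27.7% to 27.9% and 36.5% to 36.9%, and over those of list A 3.46% to 14.4% and 18.7% to 26.2%. The share also moved with depth. In list A cells of 1000 to 3000 UMIs it averaged 5.36% to 11.02%, and in those of at least 20000 UMIs 16.1% to 22.9%. In list B it rose from 22.4% and 26.4% in cells of 1000 to 3000 UMIs to 32.7% and 33.3% in those of 5000 to 10000 UMIs, and was lower again in cells of at least 20000 UMIs (30.4% and 30.6%). Mitochondrial genes took 3.75% to 4.53% of UMIs in list A and 2.14% to 2.19% in list B. The nuclear RNA Malat1 took 0.781% to 1.29% and 0.984% to 1.09%. Across cells of a library, the Spearman correlation of the share with Malat1 lay between -0.505 and -0.669 in list A and was 0.00733 and 0.110 in list B; the measures share a denominator and the cells share a library, so this is a description. The part of neutrophil RNA, mitochondrial share and depth in the list difference was not tested.

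**Figure D1:**
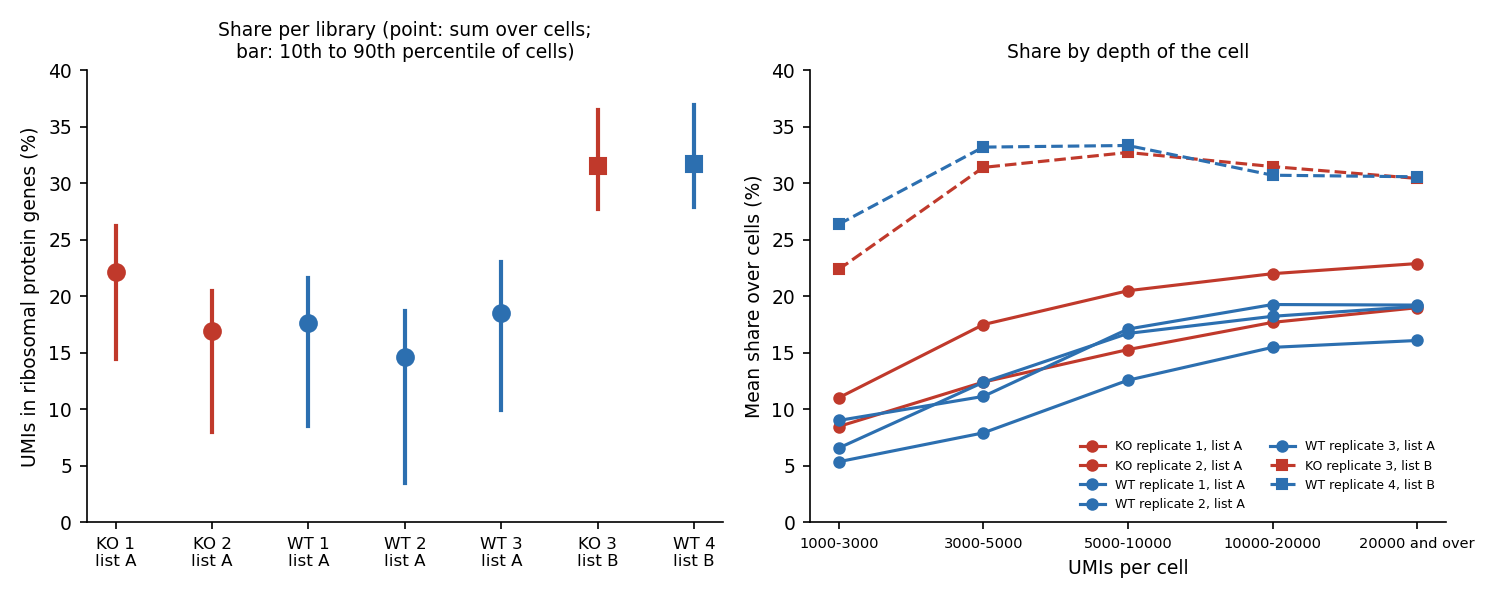
Share of UMIs in the 83 ribosomal protein genes, in percent. Left, each point is the sum over the kept cells of a library and each bar runs from the 10th to the 90th percentile of cells; right, the mean over cells by UMIs per cell (red: labelled knockout, blue: labelled wild type; circles: list A, squares: list B). The list A libraries sit between 14.6% and 22.1%, below 31.5% and 31.7% in list B, and the list B lines peak in cells of 5000 to 10000 UMIs.

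Most ribosomal protein genes were higher in list B, by very unequal factors, and a few had list B values inside or below the list A range. Levels per gene are CPM scaled by TMM, and compared between libraries only. Rps27, a zinc finger protein of the small subunit (chromosome 3, 90212522 to 90213651, mm10), stood at 1266 and 790 CPM in KO1 and KO2, at 719, 580 and 1020 CPM in WT1 to WT3, and at 5702 and 5753 CPM in KO3 and WT4. The 2 list B libraries were above all 5 of list A. Its log2 fold change, list B minus list A with the label as a covariate, was 2.62 (SE 0.25), with a Benjamini-Hochberg adjusted p of 4.81e-05 by the quasi-likelihood test of edgeR. Rpl35, a large subunit protein near the exit tunnel (chromosome 2, 39001580 to 39005624), was counted at 1053 and 698 CPM in KO1 and KO2, at 567, 472 and 617 CPM in WT1 to WT3 and at 4084 and 3988 CPM in list B. Its list difference was 2.48 on the log2 scale (SE 0.22, adjusted p 3.47e-05 by edgeR). Rps28, Rpl36 and Rpl41 followed at 2.10, 2.09 and 2.08.

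In this comparison edgeR called 67 of the 81 members tested higher in list B and none lower, where 30.8% of the 15149 genes tested were called higher and 30.7% lower. The median log2 fold change of the members was 1.13, and 76 of 81 were positive, against 49.8% of all genes. In 70 of 81 members both list B libraries lay above all list A libraries, as they did for 35.2% of all genes. By subunit, 41 of 49 large and 26 of 32 small subunit members were called. When libraries were scaled by total UMIs only, which moved the median of all genes to -0.27, 60 members were higher and 2 lower. The shares of all genes called under that scaling are not given. Without WT4 the count fell to 40 higher or lower.

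At the other end stood Rpl5, which with Rpl11 and 5S rRNA binds Mdm2 when ribosome assembly fails. Rpl5 had 2323 and 1750 CPM in KO1 and KO2, 2062, 1433 and 1788 CPM in WT1 to WT3, and 1478 and 1356 CPM in KO3 and WT4. The list B values lay at the lower edge of the list A range, a log2 difference of -0.50 (SE 0.22, adjusted p 0.0667 by edgeR). Its partner Rpl11 was higher in list B (0.95, SE 0.23, adjusted p 0.00501). Rps12 had 6207 and 4646 CPM in KO1 and KO2, 3934, 3359 and 3958 CPM in WT1 to WT3, and 3541 and 3403 CPM in list B (-0.44, SE 0.22, adjusted p 0.109). Rpsa, also known as the laminin receptor precursor, spanned 2614 to 4532 CPM in list A around 3734 and 3442 CPM in list B (-0.08, adjusted p 0.770). Rps20, Rpl30, Rpl12, Rps21, Rps10 and Rplp1 also stayed below 0.25. The 3 proteins of the ribosomal stalk, which recruits translation factors, went apart: Rplp0 (1.41, SE 0.25) and Rplp2 (1.16, SE 0.21) were higher in list B, and Rplp1 was not called (0.23, SE 0.21, adjusted p 0.370).

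Of the 10 members with the lowest list difference, 7 carry a snoRNA gene within the gene on the same strand (GENCODE M21), as 2 of the 10 with the highest do and 30 of all 83. The median difference was 0.99 over 30 such members and 1.15 over 50 others, with ranges of -0.50 to 2.02 and 0.07 to 2.62. The difference also ran with the length of the message: across 80 members its Spearman correlation with the longest annotated mRNA was -0.326, and with the median mRNA -0.347. Members with and without the run of C and T had medians of 1.15 (n = 32) and 1.07 (n = 29). These splits were chosen after the values were seen and carry no test. Ribosomal protein genes have many processed pseudogene copies, of which only 5 are named as such in the files, and how reads matching several copies were counted is not given in the sources used here. Its part in the list difference was not tested.

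**Figure D2:**
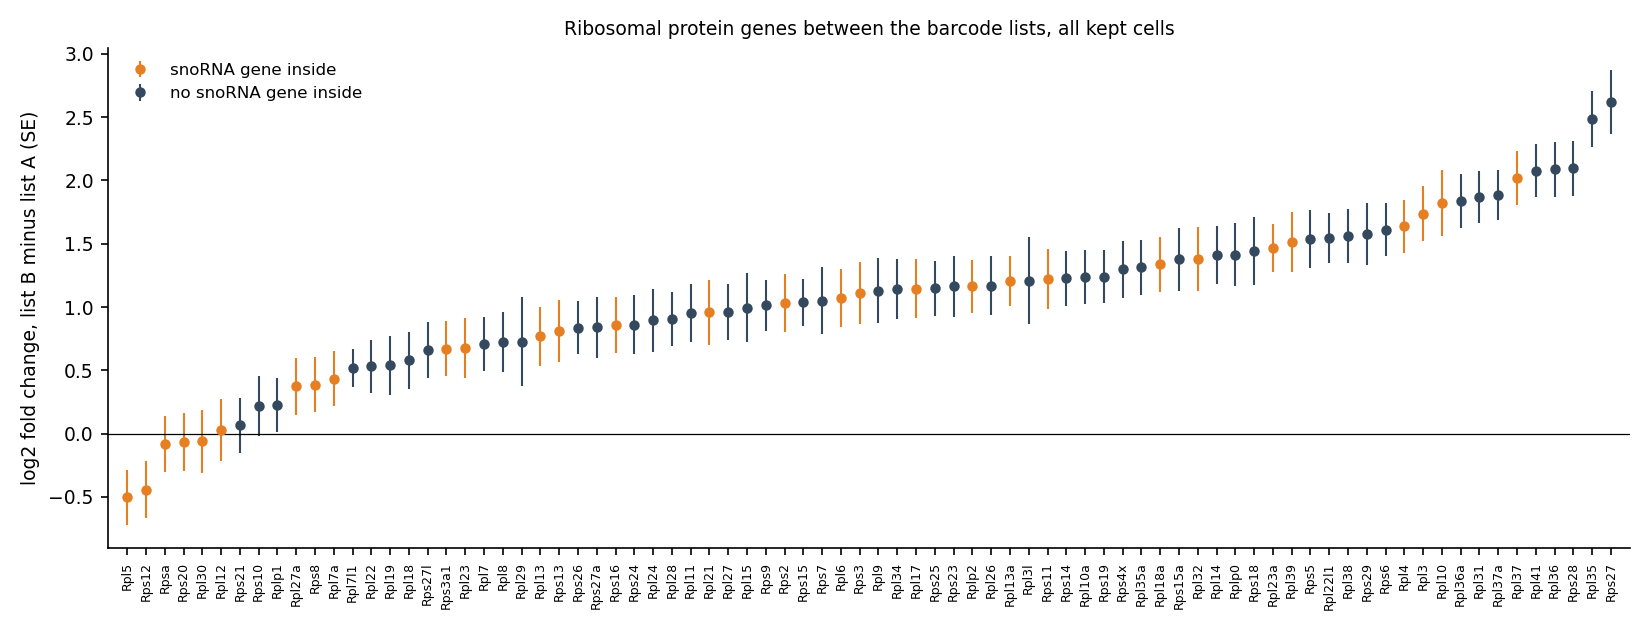
Log2 fold change of 80 of the 81 tested ribosomal protein genes, list B minus list A with the label as a covariate, with its SE, in ascending order (orange: a snoRNA gene lies within the gene). The values run from -0.50 at Rpl5 to 2.62 at Rps27, and 7 of the 10 lowest are orange.

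For paralogs and their parents the list differences were of unequal size; the contrast within a pair was not tested. Rps27l, a near copy of Rps27 and a known p53 target, had 577 and 391 CPM in KO1 and KO2, 309, 232 and 237 CPM in WT1 to WT3, and 624 and 539 CPM in KO3 and WT4. Its list difference was 0.66 (SE 0.22, adjusted p 0.0253), against 2.62 for Rps27; the groups overlapped, since KO1 lay above WT4. For Rpl22, a protein needed for T cell development, the difference was 0.53 (SE 0.21, adjusted p 0.0499), and for its paralog Rpl22l1 1.55 (SE 0.20, adjusted p 0.000161). Rpl7l1, a paralog of Rpl7, was at 63.1 to 109 CPM in list A and at 141 and 116 CPM in list B (0.52, SE 0.15). The muscle paralog Rpl3l had 0.311 to 1.27 CPM. Rpl10l, known from testis, had at most 1 UMI in any library, and Rpl39l at most 62.

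Outside the members, Fau carries the small subunit protein S30 as a fusion. It had 2469 and 1584 CPM in KO1 and KO2, 1509, 1203 and 1719 CPM in WT1 to WT3, and 4390 and 4413 CPM in KO3 and WT4, with no overlap between the lists (1.28, SE 0.23, adjusted p 0.000992 by edgeR). Of 25 other TOP genes of translation 16 were higher and 2 lower in list B (median 0.95). Of 75 mitochondrial ribosomal protein genes 54 were higher and 1 lower (median 0.64), and of 35 genes of ribosome biogenesis 11 were higher and 7 lower (median 0.10); the median of all genes was -0.01. Among the 19 members mutated in Diamond-Blackfan anaemia 17 were higher, with Rps19 at 1.24 (SE 0.21).

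Gates were cut from the UMIs of genes that are not members, and each cell went to the first gate it passed. The stem gate needs 2 or more of Procr, Fgd5, Hlf, Mecom, Slamf1 and Trpc6 and no Flt3, and the Flt3 gate at least 1 UMI of Flt3. Both are parted by mitotic genes into cycling (at least 3 detected) and non-cycling (at most 1). Lineage gates rest on Dntt, on Il7r or Rag1 (lymphoid), on Mpo, on Elane, Prtn3 and Ctsg (granule, at least 10 UMIs), and on Irf8 with Csf1r (Irf8 monocyte). The 9 gates with at least 20 cells in every library hold 21463 cells (87.9%). Of all kept cells, 29.8% passed more than 1 lineage gate, and no caller for doublets was run. As cells are summed by gate, fewer cells of a kind and less RNA per cell cannot be told apart.

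In list A, among these 9 gates, the 4 stem and Flt3 gates had the lowest shares and the granule and Irf8 monocyte gates the highest, in every library. The neutrophil gate, with under 20 cells in the other 4 libraries, had 8.69% to 18.3% in 3 list A libraries. Non-cycling stem cells had 19.8% and 12.8% in KO1 and KO2 and 15.9%, 10.5% and 16.4% in WT1 to WT3. Granule cells had 23.3% and 18.2%, and 19.8%, 17.97% and 21.5%. The gain within a library averaged 5.09 percentage points ± 1.57 (SD, n = 5) in the granule gate and 4.95 ± 1.46 in the Irf8 monocyte gate. It was 2.90 ± 1.30 in the Mpo, 2.86 ± 1.27 in the Dntt and 2.78 ± 2.04 in the Il7r or Rag1 gate, each higher in 5 of 5 libraries. Non-cycling Flt3 cells lay close to stem cells (0.889 ± 0.809, higher in 4 of 5).

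In list B non-cycling stem cells had the highest share of the 9 gates, 33.3% in KO3 and 34.6% in WT4, and granule cells had 31.5% and 31.4%. The difference was -2.52 points ± 0.971 (SD, n = 2) in the granule gate, -2.53 ± 1.30 in the Irf8 monocyte gate, -3.09 ± 0.749 in the Mpo gate, -2.18 ± 1.11 in the Dntt gate and -3.23 ± 2.26 in the Il7r or Rag1 gate. Each was lower in both libraries. Depth differs between the gates: median UMIs per cell were 3861 to 5913 in non-cycling stem and 13638 to 20132.5 in granule cells of list A, and 5973.5 to 6891 and 15583 to 16957 in list B. Malat1 took 1.60% to 2.15% of UMIs in non-cycling stem and 0.592% to 0.824% in granule cells of list A, and 1.42% to 1.49% and 0.761% to 0.784% in list B. Among cells of 5000 to 15000 UMIs with at most 5% mitochondrial UMIs, an alternative chosen after seeing the data, the granule difference was 2.67 points in the 3 list A libraries with 20 cells and -1.03 in list B. In the same cells the Dntt and Mpo differences of list A were 1.27 and 1.42 points, higher in 5 of 5 libraries, and that of the Il7r or Rag1 gate was -0.237 (3 libraries).

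**Figure D3:**
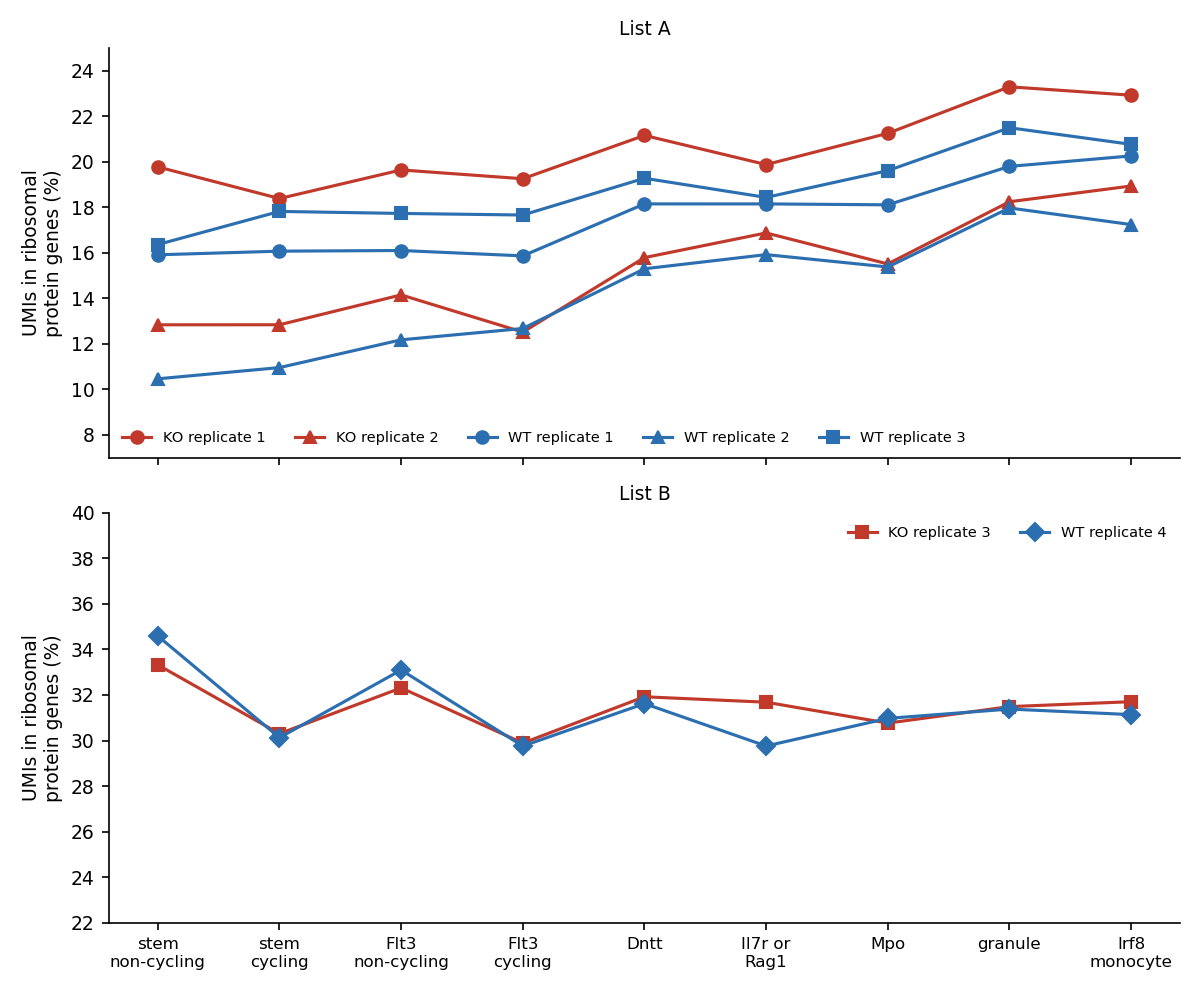
Share of UMIs in ribosomal protein genes (percent) by gate, 1 line per library, list A above and list B below (red: labelled knockout, blue: labelled wild type); neither axis starts at 0. In list A every line rises from the non-cycling stem to the granule gate; in list B both lines fall, from 33.3% and 34.6% to 31.5% and 31.4%.

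Gene by gene, edgeR tested each gate against the non-cycling stem gate with the library as a block, first over all 7 libraries. The block takes out each library's own level, and the spread is estimated over all gates together. The gate p-values thus rest on 63 sums by library and gate, which are not 63 replicates. Only 2 of the 7 libraries are of list B, so p-values for list B alone rest on those 2. Of 80 members tested, 76 were higher in the granule and 77 in the Irf8 monocyte gate, against 33% and 35.1% of the 11898 genes tested. The counts were 50 in the Dntt gate (23.4% of genes), 48 in the Mpo gate (23.6%) and 57 in the Il7r or Rag1 gate (28.1%). The 1 member lower in the Il7r or Rag1 gate was Rpl21 (-0.19, SE 0.06, adjusted p 0.0112), where 26.8% of genes were lower. In cycling Flt3 cells 6 members were higher and 9 lower (16.4% and 20.1% of genes). DESeq2 called 5 and 19 there, among 4421 genes called in either direction. For non-cycling Flt3 cells edgeR called 0 members (0 at an unadjusted p under 0.05) and 2.61% of genes higher, and DESeq2 called 0. The median member difference was 0.43 in the granule and 0.47 in the Irf8 monocyte gate, beside medians of all genes of -0.04 and -0.03. Scaled by total UMIs only, the granule gate had 62 members higher and 2 lower, with a median of all genes of -0.17. The shares of all genes called there are not given.

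The pooled counts join lists that differ, and the difference itself was tested. The gate by list term was lower in list B for 80 of 80 members in the granule gate (12.1% of 12715 genes) and for 79 in the Irf8 monocyte gate (7.52%). It was lower for 73 in the Mpo gate (2.19%), 69 in the Dntt gate (1.75%) and 61 in the Il7r or Rag1 gate (1.5%). In the cycling stem and cycling Flt3 gates edgeR called 0 members, and 0.0315% of genes were called lower in each. An unadjusted p under 0.05 was reached by 34 and 72 members. That level is looser, and the share of all genes that reached it is not given. In the non-cycling Flt3 gate edgeR called 0 members and 0% of genes lower, with 3 members at the looser level. DESeq2 was not run for this term.

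Within list A the members rose almost without exception in the lineage gates. In the granule and the Irf8 monocyte gate 78 of 80 rose (33.2% and 34.1% of 11082 genes), all but Rps27 and Rpl21, with medians of 0.62 and 0.61. In the Dntt, Mpo and Il7r or Rag1 gates 71, 72 and 68 rose (21.1%, 22.3% and 23.4% of genes). In cycling Flt3 cells 17 rose and none fell (14.5%). Among those of 5000 to 15000 UMIs with at most 5% mitochondrial UMIs, 3 rose and 29 fell. There 1675 genes were called in either direction. In non-cycling Flt3 cells edgeR called 0 (0.839% of genes higher). Within list B most called members of the lymphoid and Mpo gates fell: 24 of 80 in the Dntt gate (20% of 13475 genes), 35 in the Mpo gate (20.8%) and 31 in the Il7r or Rag1 gate (23.7%). By total UMIs only, 43, 48 and 50 of 81 fell in these gates. In the granule gate of list B that scaling also called more of all genes lower (35.4% against 28%). For the Dntt, Mpo and Il7r or Rag1 gates the share of all genes under that scaling is not given. Their member counts can therefore not be set against all genes. With TMM, the members that rose were Rps27l and Rps2 in the Dntt and Mpo gates (20.7% and 19.8% of genes), and Rpl4, Rpl41, Rps2 and Rps27l in the Il7r or Rag1 gate (24.8%). In the granule gate 19 rose and 13 fell (27.8% and 28% of genes), and in the Irf8 monocyte gate 37 rose and 6 fell (29% and 28.1%). Both granule shares lie below those of all genes. Scaling changed this split: by total UMIs only, 10 rose and 41 fell of 81 in the granule gate (21.9% and 35.4% of genes), and 11 rose and 42 fell in the Irf8 monocyte gate (21.5% and 37.5%).

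Some members rose in both lists, 19 of 80 in the granule gate, close to the share of all genes (24.6% of the 11027 tested in both lists). In the Irf8 monocyte gate 37 did (26.6%). Among them were Rpl22, Rpl22l1, Rpl41, Rps2 and Rps27l in both gates. In the Dntt gate 16 members rose in list A and fell in list B, Rps14, Rps28 and Rpl36 among them (0.263% of genes), and 28 did so in the Mpo gate (0.417%). In the granule gate 11 did, Rpl38, Rps14, Rps9 and Rpl17 among them (0.725%).

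**Figure D4:**
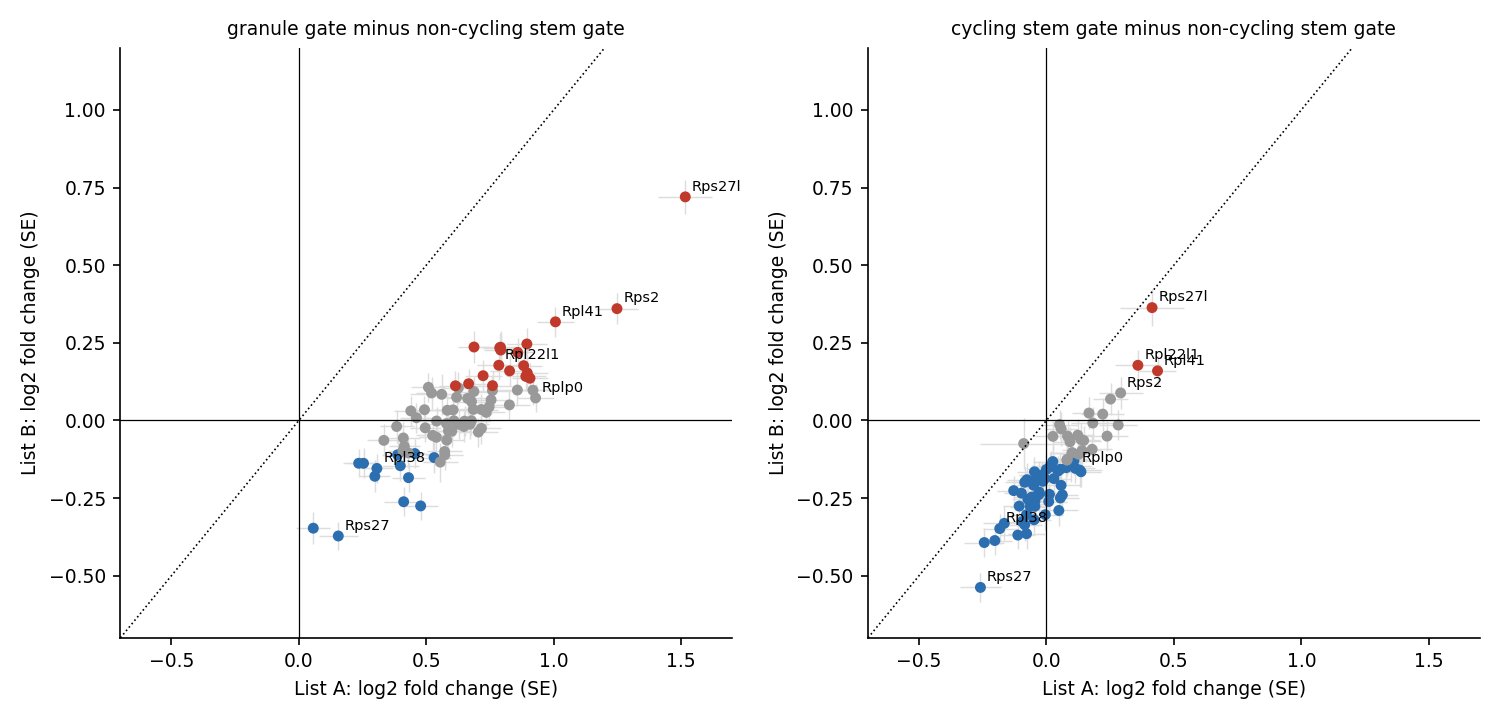
Log2 fold change of 80 ribosomal protein genes against the non-cycling stem gate, list A on the horizontal and list B on the vertical axis, bars showing SE (left: granule gate; right: cycling stem gate). Red points rose and blue points fell in list B by edgeR at an adjusted p below 0.05; the dotted line marks equal values. All 80 points lie below that line in the granule plot, with Rps27l highest at 1.52 and 0.72.

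Rps27l had the largest rise of any member in the granule and the Irf8 monocyte gate. In non-cycling stem cells it was counted at 223 and 143 CPM in KO1 and KO2, 197, 132 and 173 CPM in WT1 to WT3 and 465 and 405 CPM in KO3 and WT4. In granule cells the values were 716, 498, 455, 408, 404, 695 and 700 CPM in KO1, KO2, WT1, WT2, WT3, KO3 and WT4. Every library was higher, and the lists, which differed in stem cells, overlapped in granule cells. On the log2 scale the rise was 1.24 (SE 0.10, adjusted p 2.59e-17 by edgeR), 1.52 in list A and 0.72 in list B. In Irf8 monocyte cells it was 1.36 (SE 0.10, adjusted p 7.86e-19), 1.56 in list A and 0.99 in list B.

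Rps2, a small subunit protein at the mRNA entry, had 1277 and 838 CPM in non-cycling stem cells of KO1 and KO2, 1352, 723 and 1213 CPM in WT1 to WT3, and 3502 and 3527 CPM in list B. In granule cells it had 3012, 2051, 2972, 2182 and 2482 CPM in the list A libraries in that order and 4567 and 4229 CPM in KO3 and WT4. Again every library was higher (0.97, SE 0.10, adjusted p 4.80e-14; list A 1.25, list B 0.36). Rpl41, the shortest ribosomal protein, rose by 0.78 (SE 0.08, adjusted p 4.89e-15), 1.01 in list A and 0.32 in list B. The stalk protein Rplp0 rose by 0.93 in list A (SE 0.07, adjusted p 2.56e-17), while its list B value was 0.07 (adjusted p 0.173). Rps19, Rpl5 and Rpl11 had list A values of 0.49, 0.58 and 0.54 and list B values of 0.03, 0.03 and -0.05.

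Rps27 had no such rise in the granule gate. Its level in non-cycling stem cells was 1425 and 749 CPM in KO1 and KO2, 765, 460 and 1047 CPM in WT1 to WT3, and 6701 and 7246 CPM in KO3 and WT4. In granule cells it was 1333, 846, 713, 751 and 1192 CPM in list A and 5215 and 5284 CPM in list B. Over all libraries the granule difference was -0.02 (SE 0.07, adjusted p 0.827). In list A it was 0.15 (adjusted p 0.0683) and in list B -0.37 (adjusted p 8.43e-09), and it changed sign with several of the settings given at the end.

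**Figure D5:**
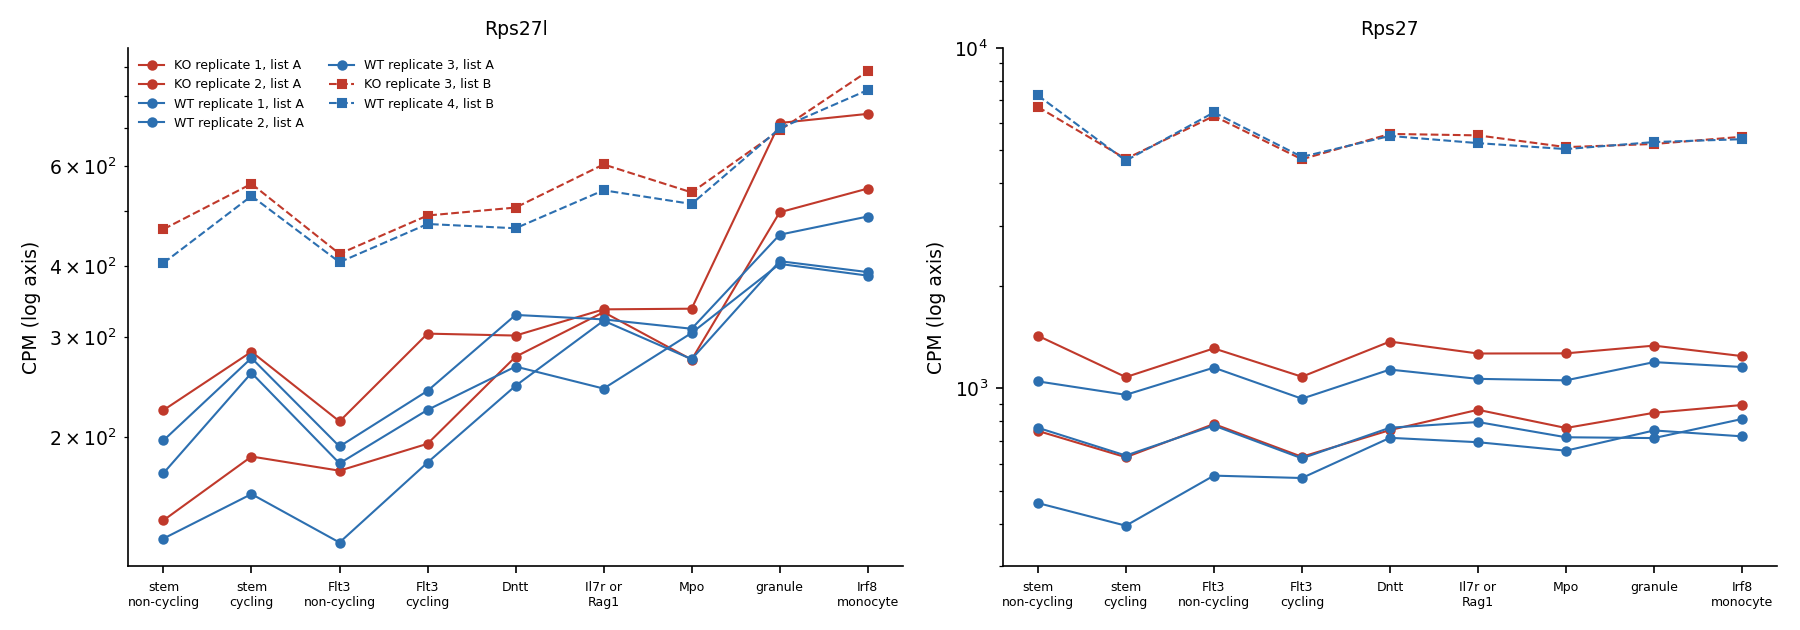
CPM of Rps27l (left) and Rps27 (right) in the 9 gates, 1 line per library on a log axis (red: labelled knockout, blue: labelled wild type; solid: list A, dashed: list B). Rps27l is higher in the granule than in the non-cycling stem gate in all 7 libraries, from 132 to 465 CPM up to 404 to 716 CPM; Rps27 separates the lists in every gate.

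In list B cycling stem cells had a lower share of ribosomal protein UMIs than non-cycling ones, while in list A the sign depended on which cells were counted. The share of ribosomal protein UMIs in cycling minus non-cycling stem cells was -3.74 points ± 1.02 (SD, n = 2) in list B and 0.144 ± 1.03 (SD, n = 5) in list A, where 4 of 5 libraries were higher with 26 to 57 cycling cells each. In cells of 5000 to 15000 UMIs with at most 5% mitochondrial UMIs it was lower in 7 of 7 libraries (-0.627 in list A, -2.96 in list B), on only 10 to 31 cycling cells in each list A library. The 1 list A library with at least 20 cells in each gate there had -0.454. With each cell thinned to 3000 UMIs the list A difference was -0.690 (2 libraries higher, 3 lower) and that of list B -4.20. Within the Flt3 gate the difference was -2.88 ± 0.647 in list B and -0.365 ± 0.784 in list A (1 of 5 higher). Thinned to 3000 UMIs it was 0.538 in list A, with 4 of 5 higher, and -3.10 in list B. Median depth was 6957.5 to 11210.5 UMIs in cycling stem cells of list A and 10894 to 12208 in those of list B.

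By gene, edgeR called 4 members higher and 11 lower in cycling stem cells over all libraries (15.2% and 17.7% of genes). With total UMIs only the split was 6 higher and 9 lower, and DESeq2 called 4 higher and 16 lower. The shares of all genes called in these fits are not given. With each cell thinned to 3000 UMIs, edgeR called 2 members higher and 42 lower, among 2560 genes called. Within list A 7 rose and 4 fell (11.5% and 8.42% of genes), and within list B 3 rose and 54 fell (13.4% and 13.7%). For cycling Flt3 cells of list B 1 rose, Rps27l, and 58 fell (15.8% and 16.5%). For non-cycling Flt3 cells 4 fell, Rpl37a, Rps21 and Rpl21 among them (4.65%), and 0 rose (4.24%). Of 80 members 3 rose in cycling stem cells in both lists, a smaller part than the 9.58% of all genes. They were Rps27l (0.39, SE 0.11, adjusted p 0.00355), Rpl41 (0.33, SE 0.08, adjusted p 0.000393) and Rpl22l1 (0.29, SE 0.08, adjusted p 0.00508). The parent of Rpl22l1, Rpl22, had 0.02 (adjusted p 0.884). The 4 of 80 that fell in both, close to the share of all genes (4.85%), were Rps27, Rpl17, Rps9 and Rpl38. The last is a protein with a known part in Hox mRNA translation. Rps27 fell from the stem values above to 1077 and 626 CPM in KO1 and KO2, 634, 394 and 956 CPM in WT1 to WT3 and 4716 and 4659 CPM in list B. It was lower in 7 of 7 libraries (-0.36, SE 0.08, adjusted p 0.000121). Rpl38 changed by -0.25 (SE 0.06, adjusted p 0.00142).

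Over both lists, most genes of the other translation lists were also higher in the granule gate, where 33% of all genes were. Of 25 other TOP genes 21 were higher and none lower (median 0.41), of 35 biogenesis genes 33 higher and 1 lower (0.57), and of 75 mitochondrial ribosomal protein genes 73 higher and 1 lower (0.75). The nucleolar proteins Npm1 (0.97, SE 0.08, adjusted p 3.57e-18) and Ncl (0.65, SE 0.07, adjusted p 6.97e-13) and the elongation factor Eef1g (0.80, SE 0.08, adjusted p 2.69e-14) were among them. The gate by list term was lower in list B for 24 of 25 other TOP genes, 58 of 75 mitochondrial ribosomal protein genes and 6 of 35 biogenesis genes. In cycling stem cells, where 15.2% of all genes were higher, 28 mitochondrial ribosomal protein genes were higher and 1 lower (median 0.23), 12 biogenesis genes higher and 3 lower (0.08), 5 other TOP genes higher and 2 lower (-0.02). The cytosolic members had a median of -0.06 there, and all genes -0.08.

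Between the labels no member passed the test. Within list A the share was 19.5% ± 3.69 (SD, n = 2) in the knockout-labelled and 16.9% ± 2.07 (SD, n = 3) in those labelled wild type, a difference of 2.60 points with overlap between the groups. Without KO1 it was -0.00914 points. In list B it was -0.177 points with 1 library a label. In the 9 gates the list A difference was 0.485 to 2.06 points, overlapping in each, and the list B difference -1.27 to 1.92 points. Neutrophil markers, at 3507 and 548 CPM in KO1 and KO2 and at 2463, 1504 and 3229 CPM in WT1 to WT3, were highest in KO1, the library with the highest share of list A; their part in the label values was not tested.

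With the list as a covariate, edgeR called 0 of 81 members and 1.07% of 15149 genes. DESeq2 called 2 members (Rps27l and Rpl41), among 864 genes called. By edgeR, 3 members had an unadjusted p under 0.05 (Rps27l, Rpl41 and Rpl7l1), and the share of all genes at that level is not given. The smallest p was that of Rps27l, at 577 and 391 CPM in KO1 and KO2 against 309, 232 and 237 CPM in WT1 to WT3, and 624 CPM in KO3 against 539 CPM in WT4. The knockout-labelled libraries were above the others within each list (0.68, SE 0.21, adjusted p 0.136). Rpl41 stood at 2305 and 1816 CPM against 1224, 1214 and 1257 CPM in list A, and at 7087 against 6842 CPM in list B (0.52, SE 0.20, adjusted p 0.211). Rpl3l, which has few UMIs, had the 1 negative value (-0.71, SE 0.36, adjusted p 0.305).

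The other 80 members had positive label differences, as had 51.2% of all genes, with a median of 0.26 beside 0.01 over all genes. That median was 0.05 without KO1, 0.16 without WT2 and 0.16 with total UMIs only. In list A both knockout-labelled libraries lay above all wild-type-labelled ones in 22 of 81 members (18.4% of genes). In 19 of them KO3 was also above WT4 (14.8% of genes), and KO3 was above WT4 in 67 of 81 members (52.8%). The list by label term called 0 of 82 members (0 at an unadjusted p under 0.05) and 0.0252% of genes; DESeq2 was not run for it. No gene of the other lists was called by label either, with medians of 0.23 (other TOP genes), 0.33 (biogenesis) and 0.35 (mitochondrial ribosomal proteins).

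Label tests within single gates gave 0 members in all 9 gates by edgeR, and member medians of 0.05 to 0.14. The share of genes called was 0.209% in the Dntt, 0.137% in the Il7r or Rag1, 0.184% in the Mpo, 0.0156% in the granule and 0% in the Irf8 monocyte gate. It was 0.0195% in non-cycling and 0% in cycling stem cells, and 0.217% and 0.00979% in non-cycling and cycling Flt3 cells. Unadjusted p under 0.05 was reached by 4 members in the Il7r or Rag1 gate, 1 in the Irf8 monocyte gate and 0 in the other 7. For all genes no share at that level is given. The gate by label terms also called 0 members, and 0.0568% of genes in the Irf8 monocyte, 0.00811% each in the Il7r or Rag1 and non-cycling Flt3 gates and 0% in the other 5.

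Over the 63 sums by library and gate, the members that varied most were Rps27 (SD 1.28 of log2 CPM), Rpl35 (1.23) and Rpl41 (1.07). The genes closest to Rps27 by Pearson correlation were Rpl37 (0.993), Rpl36 (0.990) and Rps28 (0.990). Rpl35 was closest to Rpl36 (0.995), Rpl31 (0.995) and Rps28 (0.993), and Rpl41 to Rpl23a (0.988), Rpl31 (0.988) and Rps15 (0.987). All are themselves ribosomal protein genes. The 63 sums share 7 libraries and 2 barcode lists, so these values describe likeness and carry no p.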

How the data were processed

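Single-cell RNA counts of 7 libraries (3 labelled knockout, 4 labelled wild type) were analysed. The authors deposited raw UMI counts per gene and barcode, made, per the file headers, with Cell Ranger 7.0.0; mm10 and Seurat 4.4.0 stand in the submitters' processing notes, and the counting of multimapping reads is not given in the sources used here. Depth was 14970791 to 89747946 UMIs per library. Cells with at least 1000 UMIs, at least 500 genes and at most 10% mitochondrial UMIs were kept, with doublets left in. Counts were summed per library, or per library and gate (at least 20 cells). edgeR 4.0.16 (R 4.3.3; TMM, filterByExpr, quasi-likelihood F test, two-sided, Benjamini-Hochberg over all genes, threshold 0.05) tested the label with the barcode list as covariate, the list, and each of 8 gates against non-cycling stem cells with library as block; DESeq2 1.42.0, other scalings, filters, thinning to 3000 UMIs, and leaving out each library were alternatives. The barcode list was found from the first 6 bases. Shares were computed with numpy 2.4.6 and pandas 2.3.3 and got no test.

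Members, lists and tests were chosen with earlier results of these data known. Members named were those fixed by role (stalk, paralogs, anaemia genes and the like), the 5 largest called rises and falls in comparisons of all cells, the 3 largest in each gate comparison, and the 3 genes most like the 3 most variable of these; others were named after their values were seen. The comparison settings marked in the text as chosen after seeing the data, list B alone, the gate by list term, and the cycling differences were added later. The fits were tried on simulated counts with known changes, placed only in genes with a mean of at least 100 counts. The simulated spread followed the trend over all genes and not each gene's own value. At a log2 fold change of 0.5 they recovered 16 of 100 genes for the label, 5 for the list and 94 for the granule gate. At a change of 1 they recovered 86, 71 and 99. Among genes with no change set, 1, 8 and 12 were called for the label, the list and the granule gate. Genome annotation was GENCODE M21 and RefSeq GRCm38.p6. Results that name some genes are not reported here.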

Additional observations from a re-analysis of the deposited data

Results flagged for a closer look

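WT4 lay far from the other 3 libraries labelled wild type for 10 of 30 groups of 4 libraries checked. Chance marks about 1 in 20 such groups, but Rps27, Rpl35, Rps28, Rpl36 and Rpl41 were named for their list difference and WT4 is of list B, so the count restates that choice and is no test. The gap to the nearest library, as a part of the whole range, passed the 95% critical value of Dixon for Rpl41 (0.992), Rpl35 (0.959), Rpl36 (0.949), Rps28 (0.948), Rps27 (0.915), Rpl38 (0.914), Rpl22l1 (0.889), Rps19 (0.861), Rpl3l (0.838) and Rps14 (0.8294). In each of these WT4 was the highest library. WT4 is the only wild-type-labelled library of list B, and the barcode list and that library cannot be told apart within the label.

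The difference between a gate and non-cycling stem cells itself differed between the lists. By the gate by list term of edgeR it did so for 80 of 80 members in the granule gate, 79 in the Irf8 monocyte, 73 in the Mpo, 69 in the Dntt and 61 in the Il7r or Rag1 gate, each lower in list B.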

How the results depend on the processing

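Limits: list B has 1 library per label, the gates differ in depth, and CPM depends on scaling where a few genes take a large part of the UMIs. Replicates 1 to 3 are numbered in both labels. Correlations of deviations from the label mean were 0.505, 0.695 and -0.345 for same-numbered samples. The list difference was left in these deviations, and KO3 and WT3 are of different lists. The correlations therefore cannot show whether the numbers pair the samples. A replicate block with the barcode list, which leaves 1 residual degree of freedom, called 47 members by label (2699 genes); the block in place of the list called 0. DESeq2 called 2.

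Shares, gate minus non-cycling stem (points). Among cells of 5000 to 15000 UMIs with at most 5% mitochondrial UMIs they were 2.67 (granule, 3 libraries), -0.237 (Il7r or Rag1, 3 libraries), 1.27 (Dntt), 1.42 (Mpo), -0.0433 (non-cycling Flt3) and -0.938 (cycling Flt3) in list A, and -1.15 (Irf8 monocyte), -1.03 (granule) and -2.33 (Mpo) in list B. Thinned to 3000 UMIs they were 0.213 (Il7r or Rag1, list A, 3 libraries), and -1.32 (granule), -2.15 (Mpo) and -0.709 (non-cycling Flt3) in list B. Without cells of more than 1 lineage gate they were 1.85 (granule, list A, 1 library), -1.36 (granule, list B) and -6.20 (Il7r or Rag1, list B, 1 library). The cause was not tested.

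Members called in gates, in either direction. In the same window of depth, over both lists: 30 (Dntt, among 4022 genes called), 53 (cycling Flt3, 2 up and 51 down, 3679 genes) and 1 (non-cycling Flt3, 880 genes). In list A there: 32 for cycling Flt3 (3 up and 29 down, 1675 genes), where all its cells gave 17 up and 0 down. In list B there: 24 (Dntt, 4637 genes), 64 (cycling Flt3, 3727 genes) and 11 (non-cycling Flt3, 1257 genes). List B alone, with Rpl3l tested as well: 27 (Dntt), 59 (cycling Flt3), 4 (non-cycling Flt3), 33 (granule), 36 (Il7r or Rag1), 44 (Irf8 monocyte) and 57 (cycling stem). With total UMIs only, list B alone gave 61 (cycling Flt3, 4307 genes), 6 (non-cycling Flt3, 1213 genes) and 60 (cycling stem, 3571 genes). Thinned: 28 (cycling Flt3, 15 up and 13 down, 3949 genes) and 44 (cycling stem, 2 up and 42 down, 2560 genes). The thinned granule, Irf8 monocyte and Il7r or Rag1 gates were not run, having under 20 cells in a library. DESeq2 called 24 for cycling Flt3 (4421 genes), and no filter on low counts gave 24 for cycling stem (3 up and 21 down, 3944 genes).

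Leaving out each library in turn gave 28 to 67 members (Dntt), 9 to 29 (cycling Flt3), 0 (non-cycling Flt3), 71 to 78 (granule), 39 to 65 (Il7r or Rag1), 69 to 78 (Irf8 monocyte), 28 to 66 (Mpo), 7 to 25 (cycling stem), 40 to 72 (list) and 0 by label, also within gates. The list difference of the share ranged over 12.8 to 14.7 points and the label difference in list A over -0.00914 to 5.20.

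Of 937 recomputed values over 54 results for named members, 855 kept direction and call, 50 lost and 19 gained the call, and 13 changed sign. In the granule gate Rps27 was 0.15 (list A alone), 0.066 (without KO3), 0.00068 (without WT1) and 0.086 (without WT4). In the Irf8 monocyte gate it was 0.15 (list A alone), 0.0098 (scaled from genes outside the members), 0.032 (without KO1) and 0.048 (without KO3), and ranged from -0.12 to 0.078 over the libraries left out. In list B alone Rpl38 was -0.15 in the granule gate and -0.27 with total UMIs only; Rplp0 with total UMIs only was -0.040 (granule) and -0.023 (Irf8 monocyte).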

Other observations

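Barcodes that failed the cell filter had fewer ribosomal protein UMIs than kept cells: their share was 2.42% to 13.1% over the libraries, and 71.6% to 99.6% of these barcodes exceeded the mitochondrial limit.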
